A study of Rattus norvegicus with 9 samples.

Results

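The data cover 9 genes of the NRF2 antioxidant pathway in rat liver, namely Nfe2l2, Keap1, Nqo1, Gclc, Gclm, Hmox1, Txnrd1, Srxn1 and Gpx2. They were chosen by name, and they are 9 of the 14377 genes that have a probe set of their own on the array. By the deposited table Nfe2l2 and Srxn1 lie on rat chromosome 3, Keap1 and Gclc on 8, Nqo1 and Hmox1 on 19, Gclm on 2, Txnrd1 on 7 and Gpx2 on 6. Together they have 14 of the 31042 probe sets tested, none of which names another gene. A probe set is a group of short oligonucleotides that reads a transcript, and each gene is represented by the brightest of its own probe sets on average, with the others beside it. RNA was taken from frozen liver of 9 rats, 3 per group, with 1 Affymetrix Rat Genome 230 2.0 array per rat, and the groups were vehicle, CCl4 and CCl4+Rot. According to the methods, the rats were male Sprague-Dawley rats, and fibrosis was induced with intraperitoneal injections of a mix of CCl4 and olive oil (0.2 mL per 100 g, 2 times a week for 8 weeks). CCl4+Rot rats also received rottlerin, a plant polyphenol used here to open BK potassium channels, at 2.5 mg/kg by the same route, from 2 weeks after the first CCl4 injection. The age of the rats and the time between the last injection and sampling are not given in the sources used here. None of the groups analysed received rottlerin alone. Values are log2 signals.

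NRF2, the protein product of Nfe2l2, is a transcription factor that is held at low levels by KEAP1, an adaptor that passes it to a ubiquitin ligase for degradation. Electrophiles and oxidants modify KEAP1, NRF2 then escapes degradation, and it binds antioxidant response elements beside genes for glutathione synthesis, quinone reduction and thioredoxin recycling. In liver, CCl4 is broken down by cytochrome P450 to radicals that oxidise lipids, and the same genes are commonly read as a sign of such stress. Much of the control of NRF2 is exerted on the protein, which these arrays do not measure.

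The labelled tissue was checked first. All 7 hepatocyte marker genes with a probe set of their own were called present, and their mean log2 signal lay between 13.88 and 14.70 on the 9 arrays. The number of probe sets called present lay between 15550 and 16849 on 8 arrays and was 12714 on CCl4 replicate 3. The median log2 signal of that array over all probe sets was 7.81, against 6.80 to 7.02 on the others, whereas its median over probe sets present on all arrays was 9.53, against 9.51 to 9.58. Centring each array on its median therefore lowered this array, and the median of all genes for CCl4 minus vehicle moved by -0.36 on the log2 scale. Over probe sets called absent on all other arrays, the median of CCl4 replicate 3 was 5.72, against 4.12 to 4.63 for the other arrays taken likewise. Dim signals were thus higher on that array. With few arrays every value below is imprecise, and with 3 arrays against 3 the smallest p of a two-sided exact permutation test is 0.1.

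Promoter sequences are shown for the 4 targets in which a core of the antioxidant response element was found, since the binding site of NRF2 is what links these genes. RefSeq windows (GRCr8), from 250 bases before the transcription start to 50 after it, were held for 8 of the 9 genes, with 9 windows in all and none for Hmox1. The core was searched as TGACNNNGC on both strands, and it was in 12.1% of all 33469 windows of this length. After the sequences had been seen, the form with G in the fourth place, TGAGNNNGC, was added, which was in 17.2% of all windows, and one or the other form was in 27.1%. Srxn1 held only the added form. Also added was the AP-1 site TGANTCA, which was in 7.33% and can overlap the core. In the lines that follow, each stretch is written 5′ to 3′ on the strand of the gene. Capitals mark the core, which on this strand reads as its reverse complement in all 4 genes (ending in GTCA or CTCA), and in Srxn1 they also mark an AP-1 site.
Gclm, chr2:213031913-213032021, plus strand: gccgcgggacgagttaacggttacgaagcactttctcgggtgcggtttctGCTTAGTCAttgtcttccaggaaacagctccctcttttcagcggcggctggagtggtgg
Txnrd1, chr7:22755924-22756032, minus strand: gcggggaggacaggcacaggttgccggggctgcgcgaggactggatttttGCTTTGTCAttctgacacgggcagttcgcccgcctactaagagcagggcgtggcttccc
Srxn1, chr3:161064644-161064811, plus strand: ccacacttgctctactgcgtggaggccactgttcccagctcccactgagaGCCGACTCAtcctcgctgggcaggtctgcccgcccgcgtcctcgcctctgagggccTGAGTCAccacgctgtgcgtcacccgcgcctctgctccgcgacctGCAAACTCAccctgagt
Gpx2, chr6:101230034-101230096, minus strand: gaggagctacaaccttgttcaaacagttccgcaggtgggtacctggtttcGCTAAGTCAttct
The first base of the match lay 172 bases before the start in Gclm, 78 in Txnrd1 and 13 in Gpx2. Txnrd1 has more than 1 window, and the match was in the second of them. Srxn1 held the form with G at 118 and 17 bases before the start and once more across the start itself. In Nfe2l2 a match lay after the start and is not printed, and in Keap1, Nqo1 and Gclc the window held none of these letters. A match is a string of letters and not a measured site, and these windows hold no distal sequence.

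The first comparison asked how the genes differed between CCl4 and vehicle livers. Hmox1, Srxn1, Txnrd1 and Gpx2 were higher on every CCl4 array than on every vehicle array, while Nqo1 was higher in the mean with overlapping groups. Gclc, Gclm, Nfe2l2 and Keap1 overlapped between the groups and had differences of at most 0.24 on the log2 scale in either direction. None of the differences passed the test, which was limma with a Benjamini-Hochberg adjusted p below 0.05 and at least 1.5-fold. It called 0 of the 9 genes and 0% of all genes. At an unadjusted limma p below 0.05 were 2 of the 9, Hmox1 and Srxn1, against 13.5% of all genes. The methods' t-test, unadjusted and with the same fold, called 3 (Hmox1, Srxn1 and Gpx2), against 6.3% of all genes. Limma with robust estimation and a trend of the spread with signal (the robust fit) called 0, against 1.62% of all genes. Groups that do not overlap, with CCl4 higher, were found for 4 of the 9, against 12.5% of all genes. Without vehicle replicate 3 these were 5, with Nqo1 added, against 18.3% of all genes, and with each array centred on its median Gpx2 was the only one, against 4.99%. The median difference of the 9 genes was 0.41, beside 0.13 over all genes. With each array centred on its median these became 0.05 and -0.23. Centring takes a constant from each array, so both medians must move by the same amount.

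**Figure D1:**
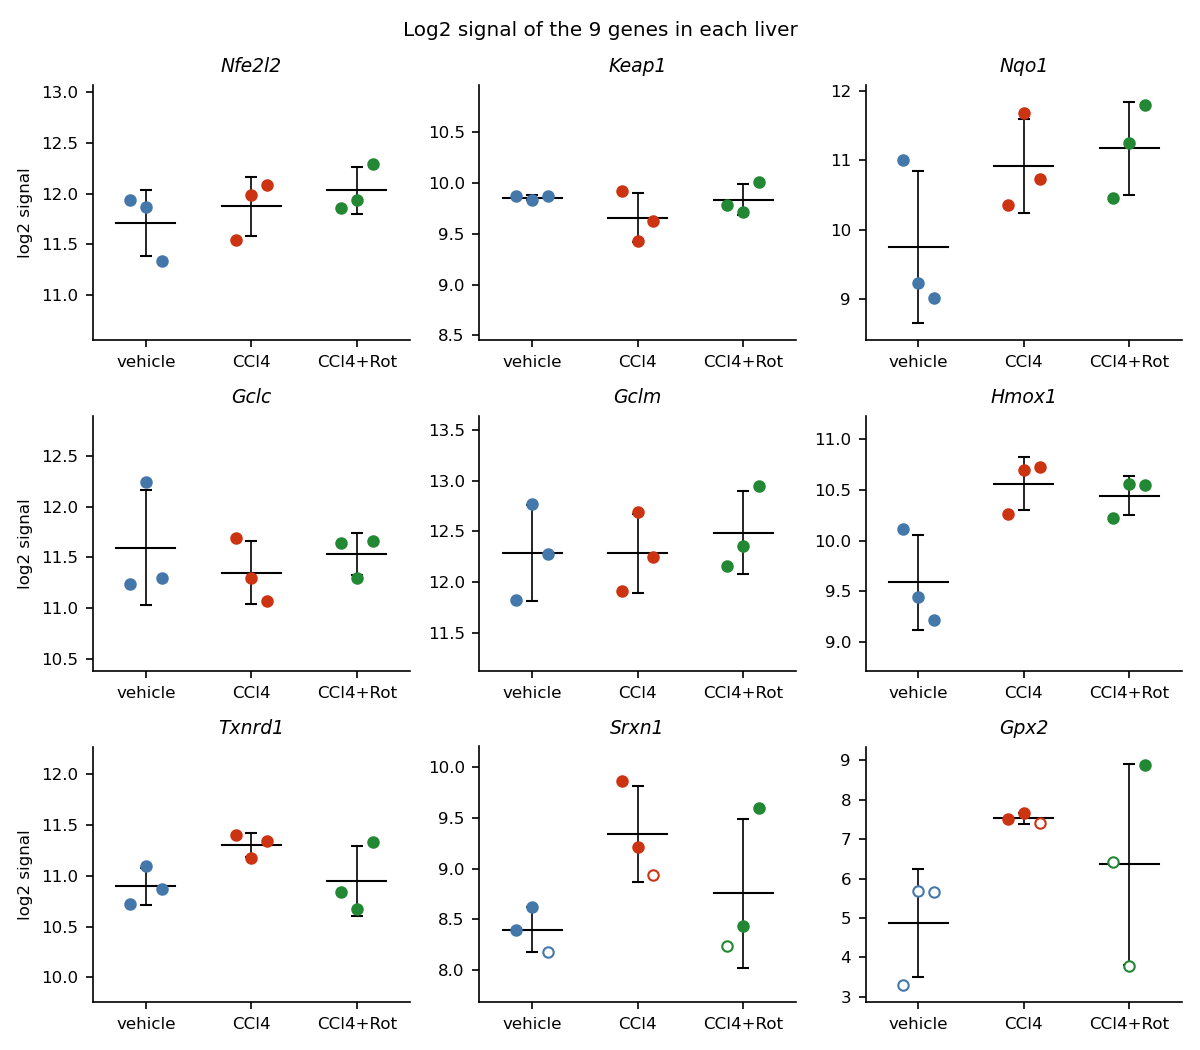
Log2 signal of each of the 9 genes (vertical axis, scaled per gene), grouped as vehicle, CCl4 and CCl4+Rot, with 1 dot per liver, filled where the gene was called present and open where it was not. The line is the mean and the bar the SD (n = 3). Hmox1, Txnrd1, Srxn1 and Gpx2 lie higher in all CCl4 livers than in all vehicle livers, and Gpx2 has 0 present calls among vehicle livers.

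Hmox1 codes for the inducible haem oxygenase, which breaks down haem to biliverdin, iron and carbon monoxide. Its log2 signal was 10.11, 9.44 and 9.22 in vehicle replicates 3, 4 and 5, then 10.26, 10.70 and 10.72 in CCl4 replicates 1 to 3, and 10.22, 10.56 and 10.55 in CCl4+Rot replicates 4 to 6. All vehicle livers lay below all others, although vehicle replicate 3 lay only just below the lowest of the injured livers. The mean was 9.59 ± 0.466 (SD, n = 3) in vehicle, 10.56 ± 0.261 in CCl4 livers and 10.44 ± 0.19 in CCl4+Rot. The difference between CCl4 and vehicle was 0.97 on the log2 scale, or 1.96-fold (SE 0.272, 95% interval 0.34 to 1.60), with a limma adjusted p of 0.26.

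Nqo1 codes for the quinone reductase that is a standard readout of NRF2 activity. Its log2 signal was 11.01, 9.22 and 9.01 in vehicle replicates 3, 4 and 5, then 10.36, 11.68 and 10.73 in CCl4, and 10.46, 11.26 and 11.80 in CCl4+Rot. The pair of lower vehicle livers lay below all injured livers, whereas vehicle replicate 3 stood within the CCl4 range. The range within the vehicle group was 2.01 on the log2 scale, or 4.02-fold. The mean was 9.75 ± 1.10 in vehicle and 10.92 ± 0.682 in CCl4 (SD, n = 3), a difference of 1.18 or 2.26-fold (SE 0.628, 95% interval -0.29 to 2.64, limma adjusted p = 0.48). Without vehicle replicate 3 the difference was 1.81, and over all arrays left out in turn the limma adjusted p ran from 0.321 to 0.78.

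Srxn1 codes for sulfiredoxin, which restores over-oxidised peroxiredoxins, and its promoter holds the matches shown above. Its log2 signal was 8.39, 8.62 and 8.18 in vehicle, 9.86, 9.21 and 8.94 in CCl4 livers, and 8.24, 8.44 and 9.60 in CCl4+Rot. It was called present on 6 of these 9 arrays. All CCl4 livers were above all vehicle livers, and the CCl4+Rot group spread over both ranges, with replicate 6 high and the other two low. The difference between CCl4 and vehicle was 0.94, or 1.92-fold (SE 0.40, limma adjusted p = 0.402). A second probe set, called present on all 9 arrays, gave 7.70, 8.17 and 7.45 in vehicle, 8.72, 8.33 and 9.02 in CCl4 livers, and 7.69, 7.76 and 8.40 in CCl4+Rot. It too had no overlap between CCl4 and vehicle, with a difference of 0.92 (SE 0.30, limma adjusted p = 0.308). The last probe set of Srxn1 had no present call, so its values are not compared.

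Txnrd1 codes for the cytosolic thioredoxin reductase. Its log2 signal was 10.73, 11.09 and 10.87 in vehicle, 11.40, 11.17 and 11.34 in CCl4 livers, and 10.84, 10.67 and 11.34 in CCl4+Rot. The gap between the lowest CCl4 liver and the highest vehicle liver was small. The difference was 0.41, or 1.32-fold (SE 0.216, limma adjusted p = 0.48). On its other probe set the groups overlapped, with 10.32, 10.68 and 10.27 in vehicle and 10.90, 10.54 and 10.36 in CCl4, and the difference was 0.18.

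Gpx2 codes for a glutathione peroxidase best known from the gut lining. It was called present on no vehicle array, with log2 signals of 3.29, 5.67 and 5.65 there, on 2 of 3 CCl4 arrays, with 7.51, 7.67 and 7.40, and on 1 of 3 CCl4+Rot arrays, with 6.43, 3.77 and 8.88. CCl4 livers were close to each other, and CCl4+Rot livers held both the highest value and one near the bottom of the vehicle range. Against the lowest signal called present on each vehicle array, or the gene's own signal where that was higher, Gpx2 was at least 6.02-fold higher in CCl4 (limma adjusted p = 0.431). Without vehicle replicate 3, the lowest of the vehicle livers, this bound was 3.64-fold. The CCl4 array on which it was not called present was replicate 3.

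Gclc and Gclm code for the catalytic and the modifier subunit of glutamate-cysteine ligase, the first step of glutathione synthesis. Gclc gave 11.24, 12.25 and 11.30 in vehicle, 11.69, 11.29 and 11.07 in CCl4 livers, and 11.64, 11.30 and 11.66 in CCl4+Rot. Vehicle replicate 4 stood above all other livers for this gene, as it did on the second probe set of Gclc (11.38, against 9.83 to 11.02 on the others). The difference between CCl4 and vehicle was -0.24 (SE 0.314, limma adjusted p = 0.768), and without vehicle replicate 4 it was 0.08. Gclm gave 11.83, 12.77 and 12.27 in vehicle, 11.92, 12.69 and 12.25 in CCl4 livers, and 12.16, 12.35 and 12.95 in CCl4+Rot. Its groups covered nearly the same range, with a difference between CCl4 and vehicle of -0.0034 and a 95% interval of -0.79 to 0.78. That interval includes changes of more than 1.5-fold in both directions.

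Of the regulators, Nfe2l2 gave 11.93, 11.87 and 11.33 in vehicle, 11.54, 11.99 and 12.09 in CCl4 livers, and 11.86, 11.94 and 12.30 in CCl4+Rot, with overlap throughout. The difference between CCl4 and vehicle was 0.16 (SE 0.247, limma adjusted p = 0.805), and it was -0.20 with each array centred on its median. Keap1 gave 9.88, 9.83 and 9.87 in vehicle, 9.92, 9.43 and 9.63 in CCl4 livers, and 9.79, 9.72 and 10.01 in CCl4+Rot. Vehicle livers were tightly grouped for Keap1 (SD 0.0242), and the other groups were spread on both sides of them. Its difference between CCl4 and vehicle was -0.20 (SE 0.179, limma adjusted p = 0.67).

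**Figure D2:**
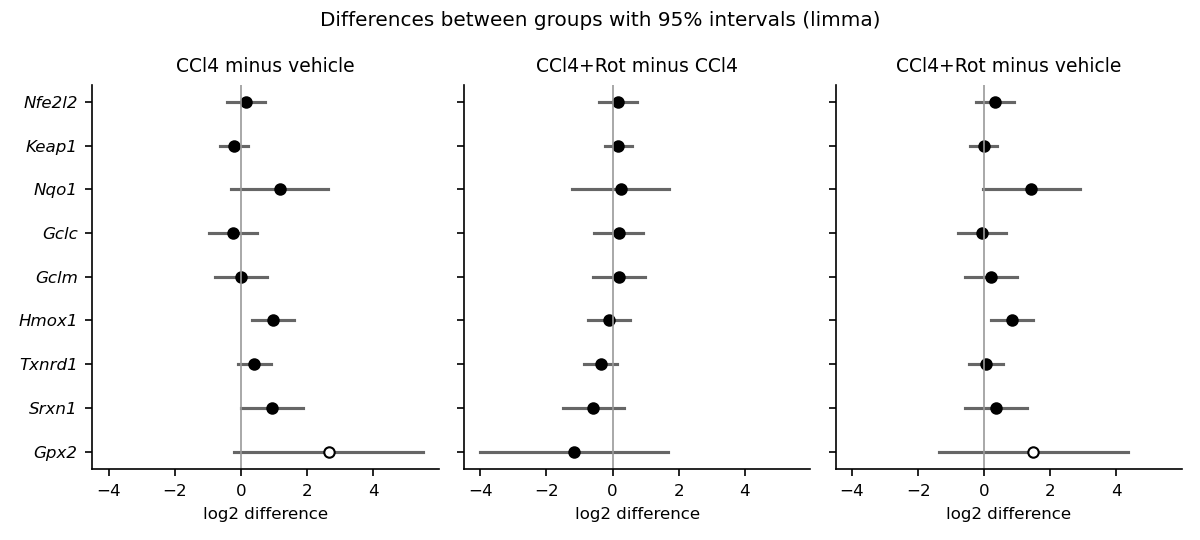
Difference in log2 signal for each of the 9 genes (rows) in the 3 comparisons, as estimated by limma, with 95% intervals as bars; open circles mark Gpx2 where the vehicle group had no present call, so that its position is not a measured change. The interval of Hmox1 against vehicle lies above 0 for CCl4 (0.34 to 1.60), and all 9 intervals for CCl4+Rot minus CCl4 include 0.

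Macrophage, stellate cell and proliferation markers were also higher in the mean in both CCl4 groups than in vehicle. In bulk tissue, more cells of a type and more RNA per cell cannot be told apart, nor can fewer cells and less RNA per cell. The mean log2 signal of 11 macrophage markers, of which 1 was present on no array, was 9.90 to 10.64 in vehicle, 10.88 to 11.27 in CCl4 livers and 11.08 to 11.44 in CCl4+Rot. Within vehicle, replicate 3 was highest for the macrophage markers, as for Nqo1, Hmox1, Nfe2l2 and, narrowly, Keap1. Replicate 4 was highest for Gclc, Gclm, Txnrd1, Srxn1 and, narrowly, Gpx2. Of the 11 genes, 8 were higher in CCl4 than in vehicle and 11 were higher in CCl4+Rot than in vehicle, with 0 called by limma in either comparison. The list mean was carried by Gpnmb, at 3.40 between CCl4 and vehicle, and by Trem2, which had no present call. Without this pair, chosen after their values were seen, the mean of the other 9 was 10.78 to 11.29 in vehicle, 11.15 to 11.51 in CCl4 livers and 11.42 to 11.83 in CCl4+Rot, so that CCl4 and vehicle overlapped. The 3 markers that were lower in CCl4 were Clec4f (-0.45), C1qa (-0.10) and Cd163 (-0.02), and the median difference of the 11 was 0.38. The 10 stellate cell and myofibroblast markers, all present, had a mean of 8.33 to 8.79 in vehicle, 9.42 to 9.93 in CCl4 livers and 9.87 to 10.00 in CCl4+Rot, and 10 of 10 were higher in CCl4. The 8 proliferation markers had a mean of 5.09 to 6.04, 6.64 to 8.29 and 6.16 to 7.08, and 8 of 8 were higher in CCl4. Hepatocyte markers were lowest on CCl4 replicate 3 (13.88). The 7 cholangiocyte markers, of which 3 were present on no array, had means of 5.94 to 6.20 in vehicle, 6.89 to 7.16 with CCl4 and 6.35 to 6.85 with CCl4+Rot, and Spp1, at 5.00 between CCl4 and vehicle, had the largest difference among them. The other lists overlapped between CCl4 and vehicle. In the same order of groups, pericentral hepatocyte markers had means of 10.39 to 10.91, 10.34 to 10.56 and 10.54 to 10.95, and endothelial markers 9.93 to 10.00, 9.62 to 9.99 and 10.10 to 10.21. Erythroid markers had means of 8.51 to 8.66, 7.50 to 8.58 and 7.96 to 8.94, and T and B cell markers 5.47 to 6.40, 5.49 to 7.09 and 5.83 to 6.56. The part of cell composition in the values of Hmox1, Nqo1 and the other genes was not tested.

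**Figure D3:**
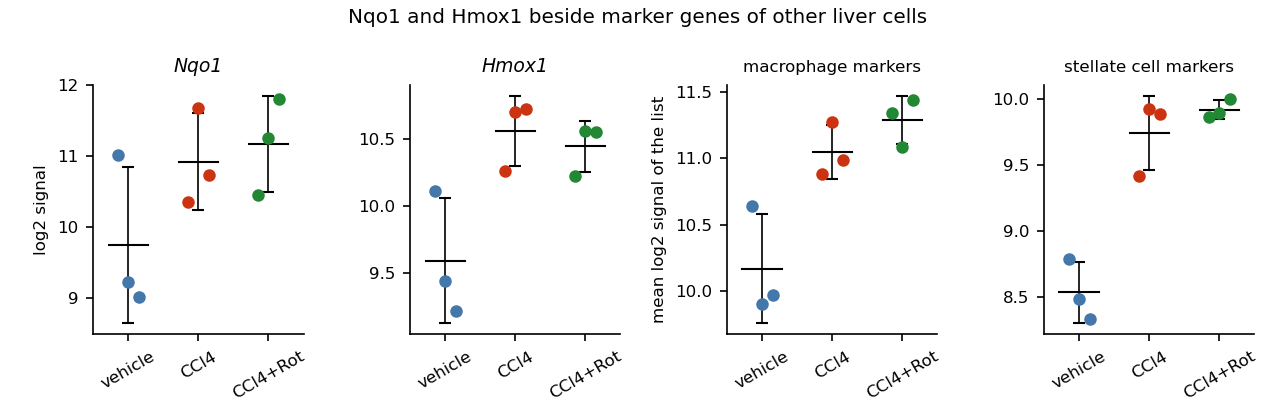
Log2 signal of Nqo1 and Hmox1 and mean log2 signal of the macrophage list (11 genes) and of the stellate cell and myofibroblast list (10 genes), with 1 dot per liver, the mean as a line and the SD as a bar. In all 4 panels the vehicle liver with the highest value is replicate 3, drawn first from the left in its group. For Gclc, Gclm, Txnrd1, Srxn1 and Gpx2, not drawn here, it is replicate 4.

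The second comparison asked whether the genes differed when rottlerin was added to CCl4. No overlap-free difference was seen for any of the 9 genes, against 11.2% of all genes, and limma called 0 of 9 (0% of all genes). At an unadjusted limma p below 0.05 were 0 of 9, against 5.5% of all genes, and the robust fit (0.00696% of all genes) and the methods' t-test (2.18%) called 0. The means of Nfe2l2, Keap1, Nqo1, Gclc and Gclm were higher in CCl4+Rot, and those of Hmox1, Txnrd1, Srxn1 and Gpx2 were lower, in the fit as deposited. The sign was the opposite for Hmox1 with each array centred on its median (0.13), for Nqo1 (-0.22) and Gclm (-0.07) with array weights, and for Keap1 with the mean of its probe sets (-0.09). The median difference of the 9 was 0.16, beside -0.05 over all genes, and it was -0.17 with array weights (-0.02 over all genes) and between -0.07 and 0.21 when 1 array was left out.

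For the targets with higher means in CCl4 than in vehicle, the intervals show what 3 rats per group can and cannot separate. Hmox1 differed by -0.12 (SE 0.272, 95% interval -0.75 to 0.52, limma adjusted p = 0.922). Nqo1 differed by 0.25 (95% interval -1.21 to 1.71, limma adjusted p = 0.931), so that a change of more than 2-fold in either direction lies within its interval. Txnrd1 differed by -0.35 (95% interval -0.86 to 0.15, limma adjusted p = 0.765), and 2 of 3 CCl4+Rot livers lay below all CCl4 livers, with replicate 6 in their range. On its other probe set the CCl4+Rot livers gave 10.18, 10.37 and 10.40, and only replicate 4 lay below all CCl4 livers. The difference there was -0.29 (limma adjusted p = 0.782). Srxn1 showed the arrangement of the first Txnrd1 probe set, with replicates 4 and 5 below all CCl4 livers and replicate 6 within them. Its difference was -0.58 (95% interval -1.51 to 0.35, limma adjusted p = 0.78), and on the probe set present on all arrays it was -0.74 (SE 0.30, unadjusted p = 0.0403, limma adjusted p = 0.749). Gpx2, present on 2 of 3 CCl4 arrays and 1 of 3 CCl4+Rot arrays, had signals of replicate 6 above and of replicates 4 and 5 below all CCl4 livers. Its difference of -1.17 (limma adjusted p = 0.83) includes signals with no present call, and it was 0.13 without CCl4+Rot replicate 5 and -2.43 without replicate 6. With 2 arrays in a group, overlap is rarer for all genes. Without CCl4+Rot replicate 6 the groups did not overlap for Txnrd1, Srxn1 and Gpx2 (against 18.6% of all genes), without CCl4 replicate 1 for Keap1, Gclc and Hmox1 (against 26.8%), and without CCl4 replicate 2 for Txnrd1 (against 23.9%). On the other probe set of Txnrd1 the groups still overlapped in both of its settings. CCl4+Rot replicate 6 also had the highest Nfe2l2, Keap1, Nqo1 and Gclm signals of its group. For the glutathione synthesis genes and the regulators, the differences were 0.18 for Gclc, 0.20 for Gclm, 0.16 for Nfe2l2 and 0.18 for Keap1, with limma adjusted p between 0.824 and 0.896.

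The last comparison set CCl4+Rot against vehicle. It uses arrays of both comparisons above, so its values are not independent of theirs. Hmox1 was the only one of the 9 genes whose groups did not overlap (with CCl4+Rot higher, against 15.2% of all genes), and with each array centred on its median there was none. Limma called 0 of 9 (0.0209% of all genes). At an unadjusted limma p below 0.05 was 1 of 9, Hmox1, against 9.79% of all genes, and the methods' t-test with its fold called Hmox1 as well, against 8.05% of all genes. The difference in Hmox1 was 0.85, or 1.81-fold (SE 0.272, 95% interval 0.22 to 1.49, limma adjusted p = 0.429). Nqo1 differed by 1.43, or 2.69-fold (95% interval -0.04 to 2.89, limma adjusted p = 0.618), and by 2.06 without vehicle replicate 3, when its groups no longer overlapped. With that array left out 2 of the 9 genes did not overlap, Nqo1 and Hmox1, against 37.1% of all genes. Beside Hmox1, the groups also did not overlap for Nfe2l2 and Nqo1 without CCl4+Rot replicate 4 (against 35.5% of all genes), for Gpx2 without replicate 5 (against 34.6%), and for Keap1, with CCl4+Rot lower, without replicate 6 (against 33.9%). These counts of 2 or 3 of 9 were thus no higher than the share over all genes. The median difference of the 9 was 0.32, beside 0.03 over all genes, and it was -0.03 without CCl4+Rot replicate 6.

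The remaining genes were nearer to vehicle or more variable. Srxn1 differed by 0.36 (limma adjusted p = 0.918) and by 0.18 on the probe set present on all arrays, and Txnrd1 differed by 0.05. Gpx2 was at least 2.68-fold higher in the mean, with overlapping groups and a limma adjusted p of 0.864, and this rests on replicate 6, the only CCl4+Rot liver in which it was called present. The bound was 1.62-fold without vehicle replicate 3 and 6.58-fold without CCl4+Rot replicate 5. The second probe set of Keap1 gave 8.15, 8.35 and 7.96 in vehicle, 8.31, 8.34 and 7.53 in CCl4 livers, and 7.81, 7.92 and 7.39 in CCl4+Rot. All CCl4+Rot livers lay below all vehicle livers there (difference -0.44, SE 0.275, limma adjusted p = 0.79), which was not so on the first probe set (difference -0.02). Nfe2l2 differed by 0.32, Gclc by -0.06 and Gclm by 0.20.

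Beyond the 9 genes, 7 lists of other genes of the pathway were read, 91 genes with a probe set of their own, of which 83 were present on at least 1 array. For CCl4 minus vehicle limma called 0 of 91, and the robust fit called 3, all higher, against 1.62% of all genes. At an unadjusted limma p below 0.05 were 16 of 91, of which 15 were higher, against 13.5% of all genes. Groups that do not overlap were found for 29, with 22 higher in CCl4 and 7 lower, against 12.5% and 8.53% of all genes. The 16 and the 29 each include Mt3 and Ggt1, which were present on no array, and the shares of all genes include such genes too. The median difference was 0.09, below the 0.13 over all genes. The lists differed among themselves, with medians of 0.53 for the 9 genes of NADPH supply and 0.47 for 15 other NRF2 targets in detoxification. The medians were 0.29 for 7 genes of the list of haem, bilirubin and ferritin and 0.24 for 21 genes of glutathione supply and use. No ferritin gene is among the 7, because none had a probe set of its own. Medians were 0.06 for 10 regulators and 0.05 for 12 genes of superoxide, peroxide and metal defence. For 17 genes of the thioredoxin and peroxiredoxin system the median was 0.01. List medians, like that of all genes, include genes present on no array, whose differences are not measured changes. The 0.47 of the detoxification targets is the value of such a gene, Cbr3. In the haem list Abcc3 (1.87) is another, and the rest ran from -0.58 (Fech) to 0.58 (Abcc4). In the glutathione list Ggt1 (1.24) and Gstm3 (1.65) are such genes.

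**Figure D4:**
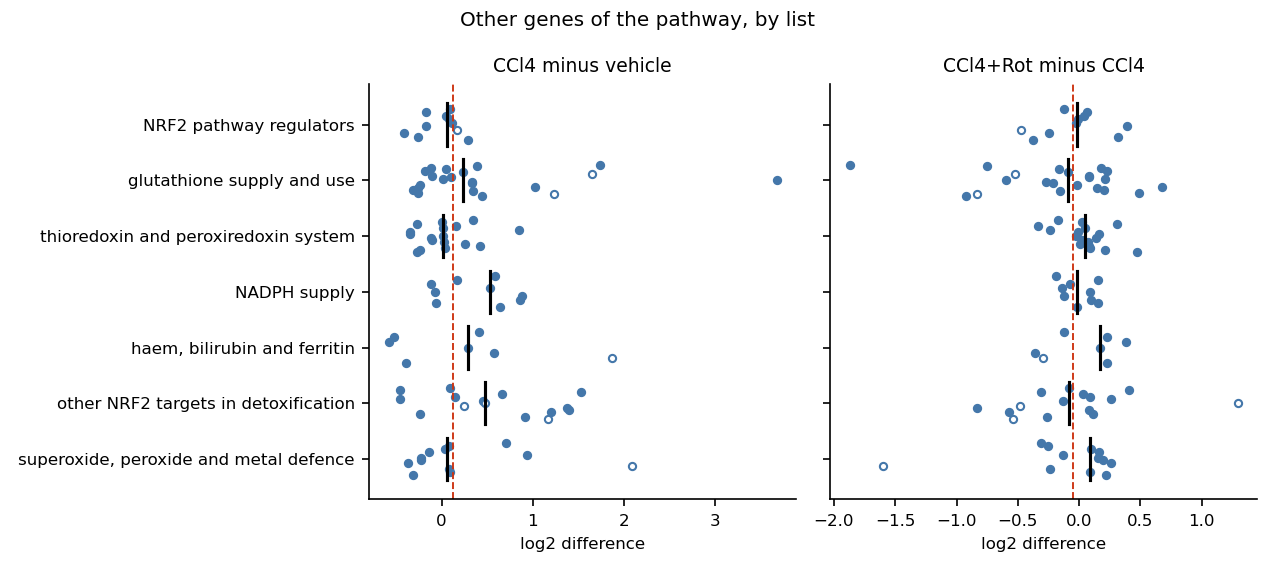
Difference in log2 signal of 91 other pathway genes, in 7 lists (rows), for CCl4 minus vehicle and CCl4+Rot minus CCl4, with 1 circle per gene, open where the gene was present on no array. The black line is the median of the list, open circles included, and the red dashed line that of all genes (0.13 and -0.05). Gsta3 is the gene farthest to the right for CCl4 minus vehicle (3.68).

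In the glutathione list, Gsta3, a glutathione S-transferase, had log2 signals of 6.51, 5.85 and 7.10 in vehicle and 10.12, 10.87 and 9.50 in CCl4. The groups lay far apart, with a difference of 3.68, or 12.8-fold (SE 0.49, unadjusted p = 9.27e-05, limma adjusted p = 0.156). Its adjusted p was 0.00343 in the robust fit and 0.0352 among probe sets present on at least 3 arrays. In CCl4+Rot it was 10.01, 8.84 and 9.85. Gsta3 belongs to a family of closely similar genes, whose transcripts its probe set may also read. Gpx3, the glutathione peroxidase of plasma, gave 8.87, 8.61 and 8.74 in vehicle, 9.37, 9.98 and 9.96 in CCl4 livers, and 10.62, 10.09 and 10.64 in CCl4+Rot. Its 3 groups did not overlap, with CCl4+Rot highest. The difference between CCl4 and vehicle was 1.03 (SE 0.243, limma adjusted p = 0.231, adjusted p = 0.0326 in the robust fit). Slc7a11, the cystine transporter that supplies glutathione synthesis, was called present on 2 CCl4 arrays and on none of the others. Its log2 signals were 7.29, 6.71 and 8.17 in CCl4, 5.24, 5.45 and 5.86 in CCl4+Rot, and 6.32, 5.01 and 5.63 in vehicle. With CCl4 alone its mean was 3.66-fold higher than with added rottlerin (limma adjusted p = 0.635). All CCl4+Rot signals of Slc7a11 lay above the lowest present signal of their arrays, so this fold is the plain estimate. The highest value, on CCl4 replicate 3, had an absent call, and without that array the fold was 2.797.

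**Figure D5:**
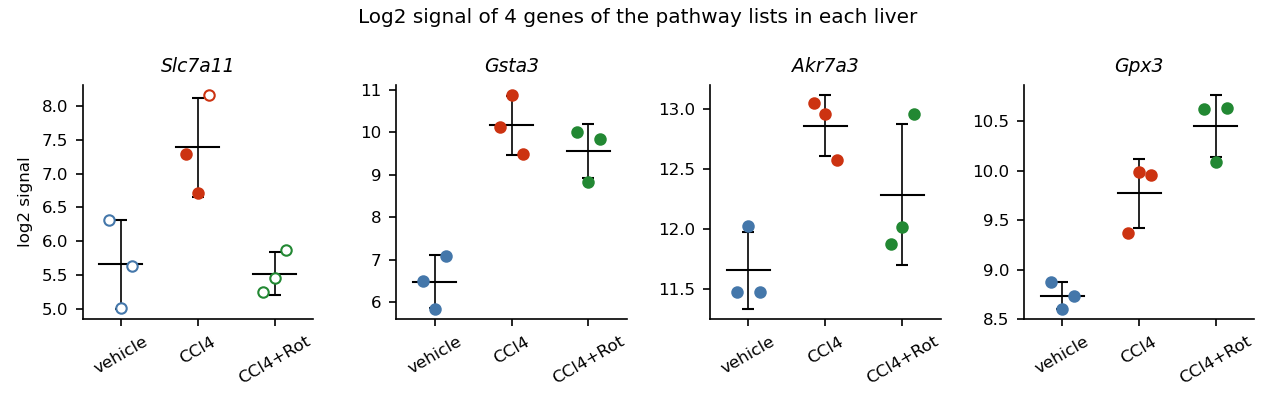
Log2 signal of Slc7a11, Gsta3, Akr7a3 and Gpx3 in each liver, by group, with filled dots where the gene was called present and open dots where it was not, the mean as a line and the SD as a bar (n = 3). Slc7a11 has 2 present calls, both in CCl4, and the groups of Gpx3 do not overlap.

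Among the other NRF2 targets, Akr7a3, an aldehyde reductase that acts on aflatoxin products, gave 11.48, 12.03 and 11.48 in vehicle, 13.06, 12.96 and 12.58 in CCl4 livers, and 11.88, 12.02 and 12.96 in CCl4+Rot. CCl4 and vehicle did not overlap, with a difference of 1.20 (SE 0.328, limma adjusted p = 0.252, adjusted p = 0.0433 in the robust fit). Against CCl4, CCl4+Rot differed by -0.57 (limma adjusted p = 0.765), and replicate 6 was again the one within the CCl4 range. Akr1b8, an aldo-keto reductase, had a mean of 7.81 ± 0.176 in vehicle, 8.72 ± 0.266 in CCl4 livers and 8.46 ± 0.135 in CCl4+Rot, with a difference of 0.91 between CCl4 and vehicle (limma adjusted p = 0.218). Both genes belong to families of similar sequence.

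NADPH feeds both glutathione reductase and thioredoxin reductase. In that list, 4 of 9 genes were higher on every CCl4 array than on every vehicle array, and 0 were lower on every one, against 12.5% and 8.53% of all genes. Idh2, the mitochondrial isocitrate dehydrogenase, had a mean of 11.18 ± 0.254 in vehicle, 12.04 ± 0.562 in CCl4 livers and 12.14 ± 0.213 in CCl4+Rot, and Me1, the cytosolic malic enzyme, had 9.78 ± 0.445, 10.66 ± 0.475 and 10.54 ± 0.29. For CCl4 minus vehicle they differed by 0.86 and 0.88, with limma adjusted p of 0.335 and 0.353. Idh1, the cytosolic isocitrate dehydrogenase, differed by 0.16 between CCl4+Rot and CCl4, with the sign opposite under array weights (-0.02) and with the mean of its probe sets (-0.16).

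In the haem list, Hmox2, the constitutive haem oxygenase, was lower on every CCl4 array than on every vehicle array, with a mean of 11.23 ± 0.12 in vehicle, 10.71 ± 0.191 in CCl4 livers and 10.94 ± 0.24 in CCl4+Rot. Its difference of -0.52 (SE 0.191, limma adjusted p = 0.349) was opposite in sign to the 0.97 of Hmox1. Slc48a1, a haem transporter, differed by 0.41 between CCl4 and vehicle (limma adjusted p = 0.405), and the efflux transporter Abcc4 by -0.36 between CCl4+Rot and CCl4 (limma adjusted p = 0.782). In the thioredoxin list the genes with the smallest p for CCl4 minus vehicle were Sesn3, a sestrin, at 0.85 (limma adjusted p = 0.375), and Msrb3, a methionine sulfoxide reductase, at 0.43 (limma adjusted p = 0.435). Sesn3 was called present on 1 of 3 vehicle and 2 of 3 CCl4 arrays, and its difference was 0.42 under quantile normalization. Txn2, the mitochondrial thioredoxin, differed by -0.33 between CCl4+Rot and CCl4 without overlap (limma adjusted p = 0.756).

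Among the regulators, Gsk3b, a kinase that marks NRF2 for degradation, differed by -0.41 between CCl4 and vehicle (limma adjusted p = 0.501), without overlap. Cul3, the scaffold of the ubiquitin ligase that KEAP1 serves, had a mean of 11.62 ± 0.168 in vehicle, 11.36 ± 0.195 in CCl4 livers and 11.68 ± 0.0596 in CCl4+Rot. It differed by -0.26 and 0.32 in the first and second comparison, with limma adjusted p of 0.562 and 0.765. In the list of superoxide, peroxide and metal defence, the selenoprotein gene Sepw1 differed by 0.94 between CCl4 and vehicle (limma adjusted p = 0.252). Sepw1 was called present on 2 of 3 arrays in each of these groups, and its difference was 0.70 under quantile normalization. Ucp2, a mitochondrial carrier called present on no vehicle array, was 1.63-fold higher in the mean in CCl4 (limma adjusted p = 0.354). All its vehicle signals lay above the lowest present signal of their arrays, so this fold is the plain estimate. CCl4 replicate 2 was the only CCl4 array on which Ucp2 was called present. Pon1, the paraoxonase of plasma, differed by 0.26 between CCl4+Rot and CCl4 (limma adjusted p = 0.784), and by -0.30 with the mean of its probe sets.

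For CCl4+Rot minus CCl4, limma and the robust fit called 0 of the 91 genes, 3 had an unadjusted p below 0.05 (against 5.5% of all genes), and the groups of 8 did not overlap (against 11.2%). The 3 and the 8 each include Mt3, present on no array. The means of 47 genes were higher and those of 44 lower, with a median of 0.02. For CCl4+Rot minus vehicle limma called 0, the robust fit called 2 (Gsta3 and Gpx3, against 1.17% of all genes), 10 had an unadjusted p below 0.05 (against 9.79%), and the groups of 23 did not overlap (against 24.7%). The median difference was 0.09.

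The genes whose profiles were most like those of the targets were named by the root mean square (RMS) difference between profiles over the 9 arrays, each centred on its own mean, over the 9245 genes with 5 or more present calls. An RMS of 0 would mean identical profiles, and the RMS of the gene's own profile gives the scale. Hmox1, with an RMS of 0.508 of its own, was nearest to Fas (0.135), Plscr1 (0.169) and Tspan9 (0.17). Nqo1, with 0.928 of its own, was nearest to Tgfb3 (0.364), S100a6 (0.382) and Bcl2a1 (0.384). Srxn1, with 0.574 of its own, was nearest to Akr7a3 (0.213), followed by Tssc1 (0.228) and Tnfrsf12a (0.23). Txnrd1 was nearest to Nsmce2 (0.118), Anapc7 (0.132) and Gars (0.133), with 0.264 of its own. Gclc was nearest to Brcc3 (0.184), Zfp36 (0.186) and Prim2 (0.192), with 0.336 of its own. Gclm was nearest to Topbp1 (0.126), LOC102554700 (0.177) and Dnajb4 (0.188), with 0.359 of its own. All values of an array share its scaling, and the measure is a description over 9 livers.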

How the data were processed

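Total RNA from frozen liver of 9 rats (vehicle, CCl4 and CCl4+Rot, 3 each, labelled as separate rats) was hybridised to 1 array each. The values deposited by the authors are log2 signals of 31099 probe sets, each with a call of detection as present, marginal or absent. The submitters' processing notes name MAS5 and affy, and on the linear scale all arrays share a mean of 500 after trimming of 2% at each end. The genome build of the table is not given in the sources used here. The log2 signals were used without further normalization, and 57 control probe sets were left out. Groups were compared with limma 3.58.1 (R 4.3.3; lmFit and eBayes) in 1 fit over all 9 arrays, with no covariate and Benjamini-Hochberg adjustment over 31042 probe sets. A call needed an adjusted p below 0.05 and the 1.5-fold of the methods, which name no test for the arrays. Limma p values set the difference of group means against the spread between rats within groups. That spread is pooled over the groups and drawn towards that of all probe sets. The fit was tested on simulated data. Of the probe sets that name 1 gene alone, the brightest on average stood for that gene (14377 genes). For a group with no present call a bound was taken, with its signals raised to the lowest signal called present on the array. Such a bound equals the plain estimate where no signal lay below that value, and it is not a confidence limit. No fold was given where both groups had no present call. The members and lists were chosen with earlier results of these data known. Besides the 9 genes, those named are any called list gene, the 2 genes of each list with the smallest p for CCl4 minus vehicle, the 1 with the smallest p for CCl4+Rot minus CCl4, and the 3 genes most like each target present on at least 5 arrays. Of 104 genes listed, 91 had a probe set of their own. There were 9 marker lists (hepatocyte, pericentral hepatocyte, macrophage, stellate cell and myofibroblast, cholangiocyte, proliferation, endothelial, erythroid, and T and B cell). Alternatives were quantile, median and present-probe centring, raising of low signals, filters (the dimmest 30%, or present on at least 3 arrays), fits of the compared groups alone, robust estimation (statmod 1.5.0), array weights, the methods' t-test, other fold thresholds, the replicate number as a random block, other ways to choose the probe set, and each array left out in turn. Robust estimation, or the robust fit, also let the spread follow a trend with signal. The effects of these 2 changes on its calls are not separated. The count of genes whose groups do not overlap, the bounds with an array left out and the macrophage mean without Gpnmb and Trem2 were added after seeing the data. Promoter windows were taken from RefSeq (GRCr8) by gene symbol.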

Additional observations from a re-analysis of the deposited data

How the results depend on the processing

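Limma called 0 of the 9 genes in each comparison under quantile, median and present-probe centring, raised signals, both filters, fits of the compared groups alone, robust estimation, array weights, the replicate block, other fold thresholds, other probe sets and each array left out (0 to 0), and the methods' t-test with adjustment called 0 as well. The methods' t-test without adjustment called 3, 0 and 1 in the comparisons of CCl4 with vehicle, CCl4+Rot with CCl4, and CCl4+Rot with vehicle (in this order here), and it called 10, 2 and 8 of the 91 list genes, against 6.3%, 2.18% and 8.05% of all genes. Mt3, present on no array, is among the 10 and, with Slc7a11, makes up the 2. Among probe sets present on at least 3 arrays, limma called 1 and 2 of the list genes in the first and the last comparison. With robust estimation these counts were 3 and 2, against 1.62% and 1.17% of all genes. With array weights limma called 1 (Gpx3) in the last comparison, and with an array left out 0 to 0. No share of all genes was computed for that filter or for array weights, so those counts have no background beside them. The labels do not say whether the replicate numbers pair rats, and CCl4 and CCl4+Rot share no number. The consensus correlation of the replicate number was -0.03, but too few arrays share a number for it to decide this. The random replicate block left every count of calls at 0 among the 9 genes and among the list genes. Median centring moved the median of all genes by -0.36, 0.25 and -0.11 and quantile normalization by -0.12, 0.06 and -0.04; the median of the 9 genes for CCl4 minus vehicle was 0.048 under the former (-0.23 over all genes), and that for CCl4+Rot minus CCl4 was -0.17 with array weights. With an array left out these medians ran from 0.32 to 0.50, from -0.065 to 0.21 and from -0.030 to 0.44, and the low end of both comparisons with CCl4+Rot came without its replicate 6. Genes whose groups do not overlap were 4, 0 and 1, against 21%, 11.2% and 24.7% of all genes. Under median centring they numbered 1 for CCl4 minus vehicle (18.2% of all genes) and 0 for CCl4+Rot minus vehicle (25.9%). With the mean of all probe sets they numbered 2 for CCl4+Rot minus vehicle (23.8%). With an array left out they ran from 4 to 6, from 0 to 3 and from 1 to 3. The highest counts came without CCl4 replicate 1 in the first and the second (39.3% and 26.8% of all genes), without CCl4+Rot replicate 6 also in the second (18.6%), and without CCl4+Rot replicate 4 in the third (35.5%). Of 675 differences of the 9 genes under alternatives, 646 kept their sign. That count includes settings that cannot change a difference of group means, so it overstates stability. These are the filters, fits of the compared groups alone, robust estimation, the t-tests, fold thresholds and omission of an array outside the comparison. For CCl4 minus vehicle the sign was opposite for Gclm under quantile normalization (0.10) and array weights (0.17) and for Nfe2l2 under median centring (-0.20). With arrays left out Gclc ran from -0.42 to 0.083, Gclm from -0.24 to 0.24 and Nfe2l2 from -0.026 to 0.33. For CCl4+Rot minus CCl4 it was opposite for Hmox1 under median centring (0.13), for Nqo1 (-0.22), Gclm (-0.067) and Idh1 (-0.019) under array weights, and for Keap1 (-0.087), Idh1 (-0.16) and Pon1 (-0.30) with the mean of all probe sets. With arrays left out Nfe2l2 ran from -0.0068 to 0.27, Nqo1 from -0.065 to 0.63, Gclm from -0.026 to 0.41 and Gpx2 from -2.43 to 0.13. For CCl4+Rot minus vehicle it was opposite for Txnrd1 under median centring (-0.059), array weights (-0.020) and the mean of all probe sets (-0.027). With arrays left out Txnrd1 ran from -0.14 to 0.19, Gclm from -0.033 to 0.44, Gclc from -0.24 to 0.27, Keap1 from -0.11 to 0.039 and Srxn1 from -0.060 to 0.62. Median centring shifts all genes of a comparison alike, and the cause of the other shifts was not tested. Where a group has no present call, as for Gpx2 in vehicle and Slc7a11 outside CCl4, a difference is not a measured change.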
